A study of Mus musculus with 8 samples.

Results

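The transcription factors that drive effector differentiation of CD8+ T cells were followed in 2 fractions of endogenous CD8+ T (en-T) cells, 1 selected for high IL-18Rα and 1 that had passed through the selection column. The group held 10 genes, Tbx21, Eomes, Prdm1, Zeb2, Id2, Bhlhe40, Runx3, Irf4, Batf and Hopx, which were chosen by name among 47493 genes in the deposited expression table and were all found there. RNA sequencing was performed on 8 libraries from 4 C57BL/6 female mice (Six- to eight-week-old), and each mouse gave 1 library per fraction. Every mouse had received the same regimen: B16F10 melanoma cells (200000) on day 0, cyclophosphamide at 300 mg/kg on day 3, and on day 5 a transfer of 2000000 Pmel-1 cells (Thy1.1-marked CD8+ T cells with a transgenic receptor for a melanoma antigen). IL-2 (10000 IU) was given daily for 3 days from day 5, and the CD4-depleting antibody GK1.5 (200 μg) weekly for 3 weeks from day 10. On day 25, Thy1.1-negative CD8+ T cells of the host were isolated from inguinal lymph nodes and spleen with beads, and IL-18Rαhi cells were retained through a PE-labeled antibody. The flow-through is thus a depleted fraction of the same treated mouse, and no untreated or singly treated mice enter the comparison.

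T-bet (encoded by Tbx21) and Eomes are related T-box factors that induce cytotoxic genes and interferon-γ in CD8+ T cells. Short-lived effector cells are known for high T-bet, Blimp-1 (Prdm1), Zeb2 and Id2, whereas memory precursors retain Eomes, Id3, Bcl6 and Tcf7. Runx3 maintains the CD8 lineage and its cytotoxic program, Irf4 and Batf act together downstream of the T-cell receptor, and Bhlhe40 and Hopx are found in effector and tissue-resident T cells.

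Il18r1, which encodes IL-18Rα and on which the cells were selected, matched the labels: it was listed at 22.2, 37.2, 27.7 and 35.3 FPKM (fragments scaled to transcript length and library depth) in flow-through replicates 1 to 4 and at 110.4, 107, 110.3 and 116 FPKM in the enriched replicates. The genes of CD8 T-cell identity, led by Cd8b1 and Lck, were high in every library, with a sum over 8 genes of 1458 to 2736 FPKM in flow-through libraries and 2708 to 2933 FPKM in enriched libraries. Flow-through replicate 1 had the lowest sum of these markers, and values without it are given below where they matter. The files carry no counts, and the depth was estimated from the steps between low values at 15800000 to 18900000 fragments per library, with overlap between the fractions. Since RNA came from bulk cells, fewer cells of a type and less RNA per cell cannot be told apart.

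The question was which of these factors differed between IL-18Rαhi-enriched and flow-through en-T cells. In the enriched fraction, 8 of the 10 factors rose, led by Tbx21 at 3.32 times and Id2 at 3.01 times the flow-through mean. Bhlhe40, Prdm1, Irf4, Batf and Hopx rose 2.03 to 2.75 times and Runx3 1.48 times. No factor fell in the limma fit (0 also at an unadjusted p under 0.05), and Eomes and Zeb2 did not pass the test. These calls were made with limma on log2(FPKM + 1) over 12166 genes whose mean reached 1 FPKM, among them all 10 factors, at an adjusted p under 0.05. Among all genes tested, 14.1% passed as higher and 13.7% as lower after enrichment. With the mouse as a replicate block, these shares were 22.2% and 22.7%, and the count of factors stayed at 8 higher and 0 lower. The limma adjusted p of these 8 was then from 0.00028 (Bhlhe40) to 0.0034 (Hopx), and it was 0.60 for Eomes and 0.29 for Zeb2. The SE and interval of each factor below come from the fit without the block, so they include the spread between mice. For the same 8 factors every enriched library lay above every flow-through library, which held for 16.4% of all genes tested. The median log2 fold change of the 10 factors was 1.08, beside -0.018 for all genes tested. The factors were chosen with earlier results of these data known, so their contrast with all genes is a description.

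**Figure D1:**
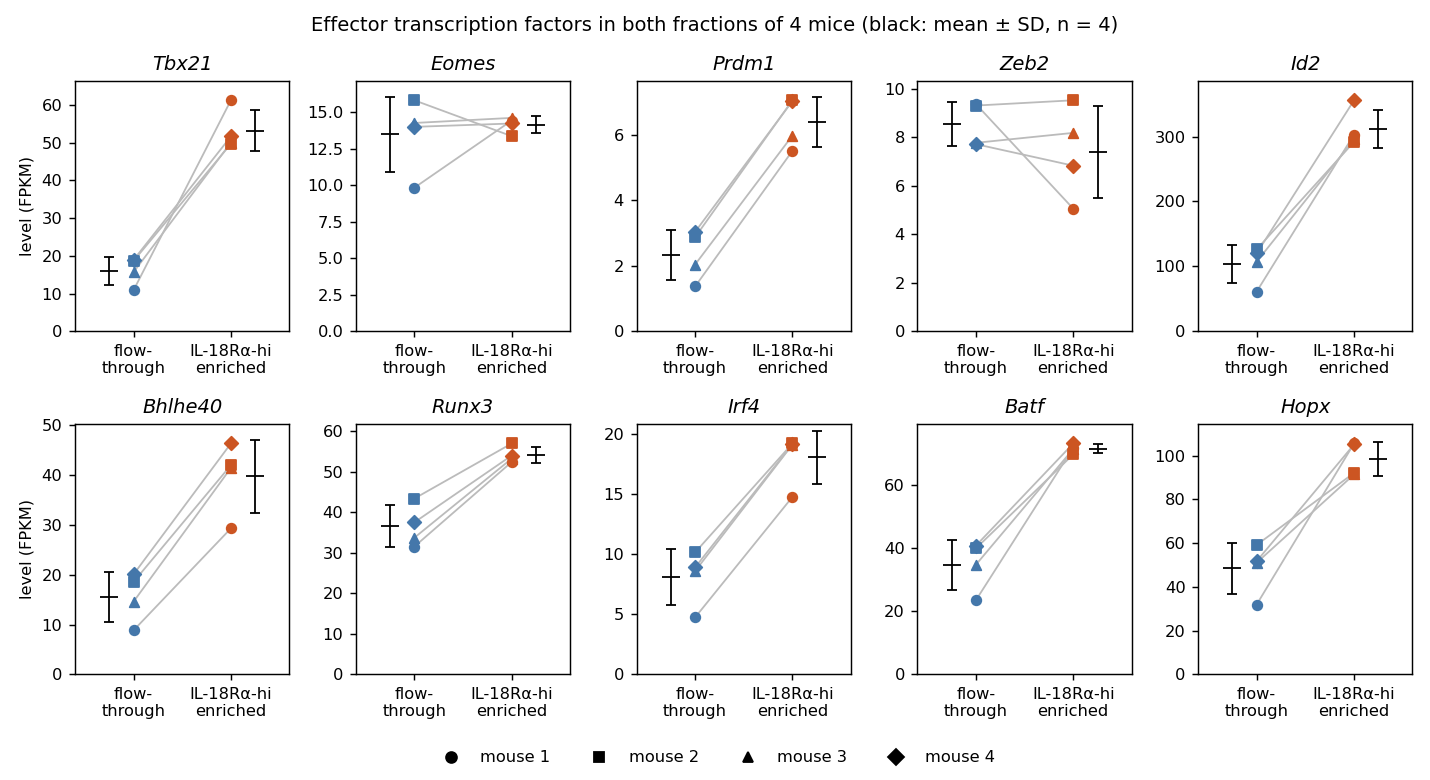
Level (FPKM, linear axis from 0) of each of the 10 factors in both fractions, with 1 point per library, a marker shape and a grey line per mouse, and the mean ± SD (n = 4) in black. For 8 factors the 4 enriched libraries sit above all flow-through libraries, whereas Eomes (13.4 to 14.6 FPKM enriched) and Zeb2 (5.06 to 9.53 FPKM enriched) overlap.

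The letters upstream of the factors were searched for known binding motifs, as a description. RefSeq promoter windows (GRCm38.p6) were found for 9 of the 10 factors, with 14 windows in all. The 250 bases before the start were searched on both strands for 7 motifs. These were GGTGTGA (T-box), TGTGGT (Runt), TGANTCA (AP-1, bound by Batf with a Jun partner), GAAA repeated after a gap of 2 bases (IRF), AGNGAAAG (Blimp-1), CACGTG (E-box bound by Bhlhe40) and CACCTG (ZEB). The IRF and Blimp-1 motifs can overlap. The 4 windows below hold a match and no base of an annotated exon, and capitals mark the matches. Tbx21 (chr11:97115332-97115581, minus strand) has a ZEB match from 196 to 191 bases before the start. Eomes (chr9:118477939-118478188, plus strand) has an IRF match from 154 to 145 bases before the start. Prdm1 (chr10:44458749-44458998, minus strand) has an AP-1 match (48 to 42 bases before the start) and a ZEB match (87 to 82 bases), and the distal start of Runx3 (chr4:135120395-135120644, plus strand) has 2 Runt matches (134 to 129 and 126 to 121 bases) and a ZEB match (233 to 228 bases).
Tbx21: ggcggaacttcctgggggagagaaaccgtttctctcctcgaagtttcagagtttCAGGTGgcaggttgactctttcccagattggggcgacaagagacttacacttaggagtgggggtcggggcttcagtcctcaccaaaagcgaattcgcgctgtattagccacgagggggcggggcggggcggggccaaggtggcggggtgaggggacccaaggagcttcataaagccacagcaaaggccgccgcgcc
Eomes: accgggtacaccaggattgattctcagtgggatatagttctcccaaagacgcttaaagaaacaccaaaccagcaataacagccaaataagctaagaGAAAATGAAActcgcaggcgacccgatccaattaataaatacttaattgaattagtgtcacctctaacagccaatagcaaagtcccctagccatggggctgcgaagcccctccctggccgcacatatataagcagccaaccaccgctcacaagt
Prdm1: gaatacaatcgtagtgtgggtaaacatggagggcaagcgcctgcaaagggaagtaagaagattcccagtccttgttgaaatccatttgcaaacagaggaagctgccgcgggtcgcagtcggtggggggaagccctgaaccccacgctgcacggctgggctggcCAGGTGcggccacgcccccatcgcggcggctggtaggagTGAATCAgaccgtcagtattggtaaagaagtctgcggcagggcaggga
Runx3: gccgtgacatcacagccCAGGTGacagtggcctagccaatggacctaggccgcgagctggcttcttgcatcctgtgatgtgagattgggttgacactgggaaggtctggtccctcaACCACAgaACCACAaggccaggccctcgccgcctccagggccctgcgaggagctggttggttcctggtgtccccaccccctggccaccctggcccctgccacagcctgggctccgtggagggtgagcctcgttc
Over the 14 windows of the factors, the T-box motif was matched in 0, the Runt, AP-1 and Blimp-1 motifs in 2 each, the IRF motif and the E-box in 1 each and the ZEB motif in 3. Both Blimp-1 windows are overlapping windows of Zeb2 that hold the same site. The windows of Id2 and Irf4, which rose, held no match of any motif. Among 32851 windows of all genes, the T-box motif was matched in 3.33%, Runt in 14.0%, AP-1 in 6.75%, IRF in 2.98%, Blimp-1 in 7.30%, the E-box in 6.02% and ZEB in 17.2%. The counts over 14 windows were not tested against these shares. A match is a run of letters and no evidence of binding.

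The T-box factors parted. Tbx21 (ENSMUSG00000001444, GRCm38 chr11:97098071-97115331, minus strand, protein coding) is the master regulator of type 1 immunity and was at 10.9, 18.6, 15.7 and 18.9 FPKM in flow-through replicates 1 to 4. It was at 61.3, 49.7, 50.02 and 51.7 FPKM in the enriched replicates. All enriched libraries lay above all flow-through libraries, and mouse 1 held both the lowest flow-through value and the highest enriched one. The log2 fold change of Tbx21 was 1.69 ± 0.17 (SE, n = 4 per fraction, 95% interval 1.31 to 2.08), with a limma adjusted p of 0.00065, and the gene ranked 49 of 12166 by this value. By the estimated depth, 438 to 805 fragments per flow-through library and 1874 to 2576 per enriched library stood behind these values. Within the mice its FPKM was 1.41 to 2.50 higher on the log2 scale in the enriched fraction. Without flow-through replicate 1 its log2 fold change was 1.53, and 8 factors were again higher and 0 lower, beside 14.2% and 12.9% of the 12195 genes then tested.

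Eomes (ENSMUSG00000032446, GRCm38 chr9:118478212-118486132, plus strand), the partner T-box factor that sustains memory cells and their response to IL-15, did not follow. It was at 9.82, 15.8, 14.3 and 14.0 FPKM in flow-through replicates 1 to 4 and at 14.4, 13.4, 14.6 and 14.2 FPKM in the enriched replicates. The ranges overlapped, and the enriched library was the higher one in 3 of the 4 mice. Its log2 fold change was 0.084 ± 0.13 (SE), with a 95% interval from -0.22 to 0.39 and a limma adjusted p of 0.66. The sign changed without flow-through replicate 1, at -0.049, and with both libraries of mouse 1 left out, at -0.058.

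The ratio of the T-box factors within a library does not depend on how libraries are scaled. Tbx21 was at 1.10 to 1.35 times the FPKM of Eomes in the flow-through and at 3.42 to 4.25 times in the enriched fraction. The ratio was thus 3.18 times as large in the enriched fraction, higher in 4 of 4 mice and without overlap (exact two-sided permutation p = 0.0286, the smallest that 70 arrangements allow; adjusted p = 0.0429 over 6 ratios). The ratio of Tbx21 to Cd3e, a subunit of the T-cell receptor complex, behaved alike. It was 0.0831 to 0.0881 in the flow-through and 0.208 to 0.247 in the enriched fraction, or 2.57 times as large (exact permutation p = 0.0286, adjusted p = 0.0429). These permutations treat the 8 libraries as exchangeable, although each mouse gave 1 of each fraction. When the fractions are swapped within mice as a replicate block, 16 arrangements exist, no exact two-sided p can go below 0.125, and that is the p of every ratio here that was higher in all 4 mice (adjusted p = 0.188). Flow-through replicate 1, which had the lowest Tbx21 level, had the highest of the flow-through ratios to Cd3e.

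**Figure D2:**
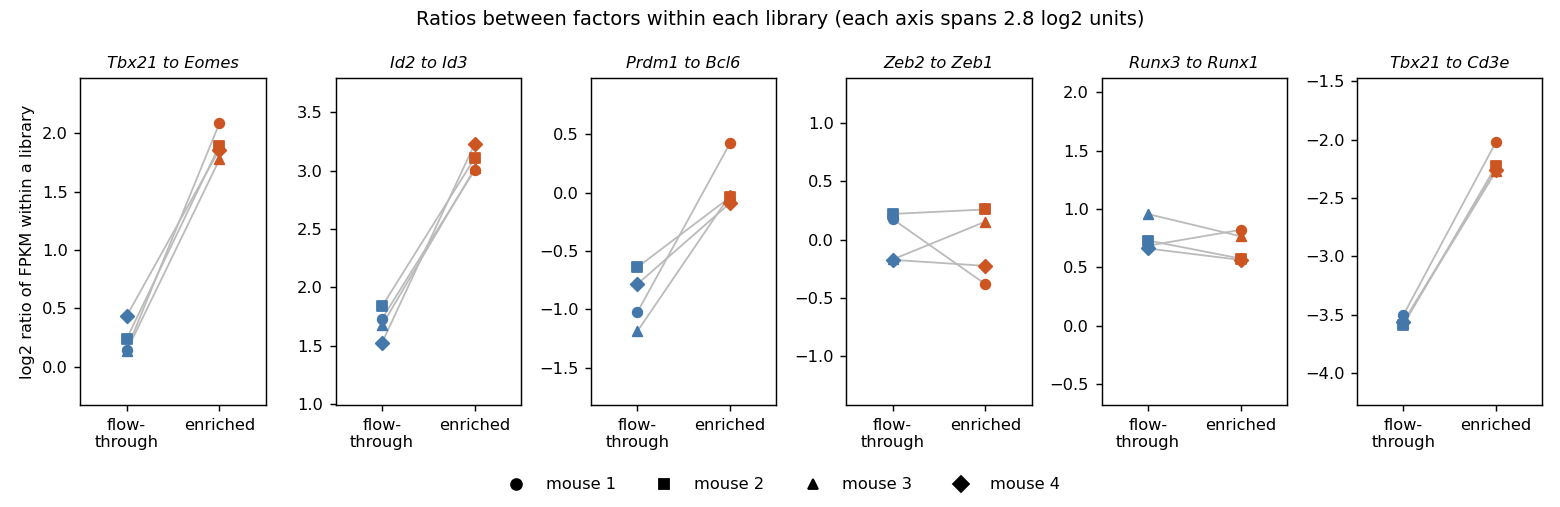
Log2 ratio of the FPKM of 2 genes within each library, with 1 point per library and a line per mouse, on axes of equal span for 6 gene pairs. Tbx21 to Eomes, Id2 to Id3, Prdm1 to Bcl6 and Tbx21 to Cd3e were higher in the enriched library of all 4 mice, and the differences of Zeb2 to Zeb1 (-0.062) and Runx3 to Runx1 (-0.077) were within the spread between libraries.

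Of the transcriptional repressors that promote terminal effector differentiation, Prdm1 rose and Zeb2 did not pass the test. Prdm1 (ENSMUSG00000038151, GRCm38 chr10:44437177-44528501, minus strand) encodes Blimp-1, a repressor of memory and follicular genes. It was at 1.37, 2.87, 2.04 and 3.04 FPKM in flow-through replicates 1 to 4 and at 5.52, 7.06, 5.99 and 7.04 FPKM in the enriched replicates. It had the lowest mean of the factors in both fractions, although its enriched range overlapped that of Zeb2. Its own 2 fractions did not overlap. Its log2 fold change was 1.18 ± 0.18 (SE, 95% interval 0.77 to 1.59, limma adjusted p = 0.0032). Its counterpart Bcl6, the repressor that opposes Blimp-1, was at 4.29 ± 1.1 FPKM (SD, n = 4) in flow-through libraries and 6.23 ± 1.5 FPKM in enriched libraries, with a log2 fold change of 0.45 (limma adjusted p = 0.14, and 0.0071 with the replicate block). The ratio of Prdm1 to Bcl6 went from 0.438 to 0.642 in the flow-through to 0.940 to 1.34 in the enriched fraction, a 1.97 times larger ratio in the mean of 4 mice that were all higher (exact permutation p = 0.0286, adjusted p = 0.0429).

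Zeb2 (ENSMUSG00000026872, GRCm38 chr2:44983632-45117395, minus strand) is a zinc-finger repressor that acts with T-bet in terminal effector cells. It was at 9.38, 9.31, 7.78 and 7.72 FPKM in flow-through replicates 1 to 4 and at 5.06, 9.53, 8.19 and 6.83 FPKM in the enriched replicates. The enriched fraction held both the lowest and the highest value, and 2 of 4 mice were higher in it. The log2 fold change was -0.21 ± 0.17 (SE, 95% interval -0.59 to 0.17, limma adjusted p = 0.38), so a rise of the size seen for Prdm1 lies outside the interval. Its paralog Zeb1 was at 8.44 ± 0.36 FPKM in flow-through libraries and 7.47 ± 0.66 FPKM in enriched libraries, a log2 fold change of -0.16 (limma adjusted p = 0.19). The ratio of Zeb2 to Zeb1 was 0.887 to 1.17 in the flow-through and 0.768 to 1.20 in the enriched fraction (exact permutation p = 0.657, adjusted p = 0.657). The antisense gene Zeb2os, at 1.26 to 2.82 FPKM, shares 3.27% of the exonic bases of Zeb2, and the default counting did not use strand.

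Id2, an inhibitor of E proteins that is needed for effector expansion and innate-like lymphocytes, was the most abundant of the factors in both fractions. Id2 (ENSMUSG00000020644, GRCm38 chr12:25093799-25097140, minus strand) was at 61.1, 126, 107 and 120.0 FPKM in flow-through replicates 1 to 4 and at 303, 292, 296 and 356 FPKM in the enriched replicates. The lowest enriched library had more than the highest flow-through one, and the flow-through spread came mostly from replicate 1. The log2 fold change was 1.63 ± 0.21 (SE, 95% interval 1.14 to 2.12, limma adjusted p = 0.0019). Id3, the related inhibitor kept by memory precursors, was at 32.2 ± 9.9 FPKM (SD, n = 4) in flow-through libraries and 36.5 ± 1.9 FPKM in enriched libraries (log2 fold change 0.23, limma adjusted p = 0.46). Without flow-through replicate 1 the value for Id3 was -0.010. The ratio of Id2 to Id3 was 2.88 to 3.57 in the flow-through and 8.04 to 9.39 in the enriched fraction, 2.64 times as large and higher in 4 of 4 mice (exact permutation p = 0.0286, adjusted p = 0.0429).

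Bhlhe40, a basic helix-loop-helix factor that sustains interferon-γ production and mitochondrial fitness of T cells, followed Tbx21 and Id2 by log2 fold change of FPKM + 1, whereas Prdm1 did so by the ratio of means (2.75 against 2.56). Bhlhe40 (ENSMUSG00000030103, GRCm38 chr6:108660629-108666925, plus strand) was at 8.85, 18.6, 14.6 and 20.1 FPKM in flow-through replicates 1 to 4 and at 29.3, 42.0, 41.5 and 46.4 FPKM in the enriched replicates. Mouse 1 gave the lowest value of each fraction, and the fractions did not overlap. The log2 fold change was 1.34 ± 0.25 (SE, 95% interval 0.78 to 1.90, limma adjusted p = 0.0062).

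Irf4 and Batf, which bind DNA together at composite elements after T-cell receptor signals, rose by similar amounts. Irf4 (ENSMUSG00000021356, GRCm38 chr13:30749226-30766976, plus strand) was at 4.74, 10.1, 8.59 and 8.90 FPKM in flow-through replicates 1 to 4 and at 14.8, 19.2, 19.1 and 19.2 FPKM in the enriched replicates. Again mouse 1 was lowest in each fraction. Its log2 fold change was 1.10 ± 0.20 (SE, 95% interval 0.64 to 1.56, limma adjusted p = 0.0063). Batf (ENSMUSG00000034266, GRCm38 chr12:85686669-85709087, plus strand) was at 23.5, 40.0, 34.8 and 40.8 FPKM in flow-through replicates 1 to 4 and at 71.9, 69.8, 71.5 and 73.2 FPKM in the enriched replicates. The enriched libraries of Batf were the tightest of the group relative to their mean, at 71.6 ± 1.42 FPKM (SD, n = 4). Its log2 fold change was 1.05 ± 0.16 (SE, 95% interval 0.69 to 1.42, limma adjusted p = 0.0032).

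Runx3 showed the smallest change that passed the test, and it lost the call when libraries were scaled to T-cell markers (log2 fold change 0.25, limma adjusted p = 0.305). Runx3 (ENSMUSG00000070691, GRCm38 chr4:135120652-135177990, plus strand), which silences Cd4 and binds cytotoxic genes, was at 31.5, 43.4, 33.7 and 37.5 FPKM in flow-through replicates 1 to 4 and at 52.4, 56.9, 53.2 and 54.0 FPKM in the enriched replicates. The fractions did not overlap and all 4 mice were higher in the enriched one. The log2 fold change was 0.56 ± 0.10 (SE, 95% interval 0.33 to 0.80, limma adjusted p = 0.0058). Runx1 rose with it, from 21.7 ± 4.0 to 33.9 ± 4.1 FPKM (SD, n = 4; log2 fold change 0.63, limma adjusted p = 0.013). The ratio of Runx3 to Runx1 was 1.58 to 1.94 in the flow-through and 1.48 to 1.77 in the enriched fraction, and was higher in the enriched library of 1 of 4 mice (exact permutation p = 0.429, adjusted p = 0.514).

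Hopx, a small homeodomain protein without DNA binding of its own that marks effector and resident T cells, rose 2.03 times. Hopx (ENSMUSG00000059325, GRCm38 chr5:77086988-77115121, minus strand) was at 31.9, 59.2, 51.1 and 51.8 FPKM in flow-through replicates 1 to 4 and at 106, 92.1, 91.4 and 105 FPKM in the enriched replicates. All enriched libraries lay above all flow-through libraries. The log2 fold change was 1.04 ± 0.18 (SE, 95% interval 0.64 to 1.44, limma adjusted p = 0.0046). The antisense gene Hopxos shares 27.2% of the exonic bases of Hopx and was listed at 0.754 to 1.81 FPKM, and reads of the pair cannot be told apart without strand.

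FPKM is scaled to transcript length, so levels were compared between the factors. In the flow-through the order was Id2 (mean 104 FPKM), Hopx (48.5), Runx3 (36.5), Batf (34.8), Tbx21 (16.01), Bhlhe40 (15.5), Eomes (13.5), Zeb2 (8.55), Irf4 (8.09) and Prdm1 (2.33 FPKM). The ranges of neighbours were apart between Id2 and Hopx, Batf and Tbx21, Eomes and Zeb2, and Irf4 and Prdm1, and overlapped for the other pairs. In the enriched fraction the order was Id2 (mean 312 FPKM), Hopx (98.6), Batf (71.6), Runx3 (54.1), Tbx21 (53.2), Bhlhe40 (39.8), Irf4 (18.1), Eomes (14.2), Zeb2 (7.40) and Prdm1 (6.40 FPKM). Here all neighbours were apart except Runx3 with Tbx21 and Zeb2 with Prdm1. Tbx21 thus stood with Bhlhe40 and Eomes in the flow-through and with Runx3 in the enriched fraction, and Irf4 stood above Eomes in the enriched fraction alone.

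The T-cell markers differed between libraries, so the factors were also scaled to them. Each library was divided by a factor from the 8 CD8 T-cell markers, 0.587 for flow-through replicate 1 and 0.928 to 1.17 for the others. The median of all genes then moved to -0.30 on the log2 scale, and 4.54% of genes were called higher and 7.24% lower. Under this scaling 7 of the 10 factors were called higher, with log2 fold changes of 1.39 for Tbx21, 1.31 for Id2, 1.04 for Bhlhe40, 0.95 for Prdm1, 0.82 for Irf4, 0.74 for Batf and 0.73 for Hopx. Runx3 lost its call, as given above. Eomes was at -0.21 and Zeb2 at -0.49, near or below the median of all genes on this scale, and neither was called. Without flow-through replicate 1, the log2 fold changes of FPKM as deposited were 1.39 for Id2, 1.11 for Bhlhe40 and 1.02 for Prdm1. They were 0.90 for Irf4, 0.88 for Batf, 0.86 for Hopx, 0.50 for Runx3 and -0.17 for Zeb2.

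**Figure D3:**
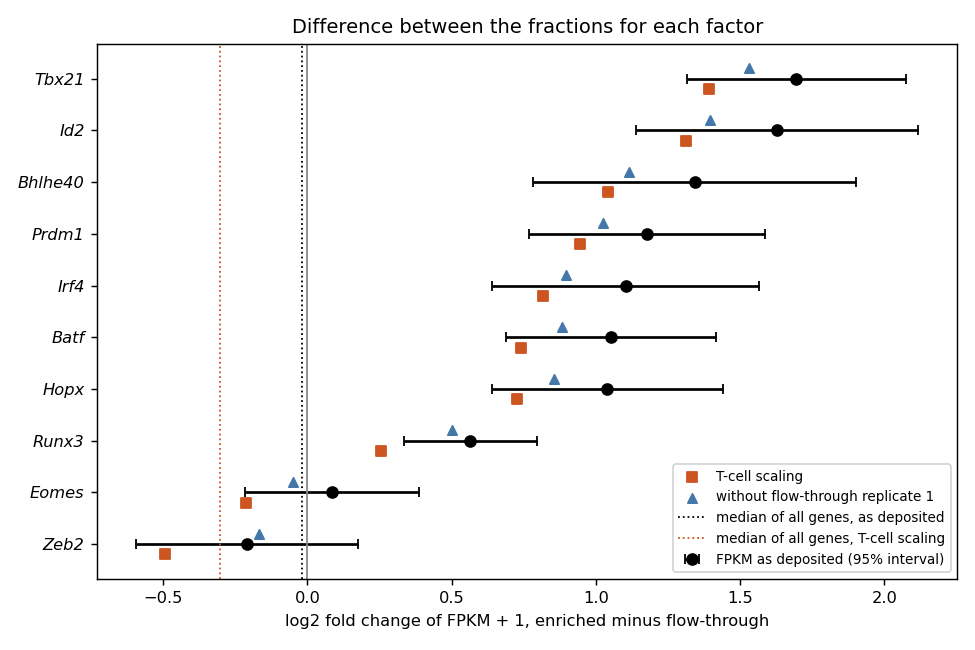
Log2 fold change of FPKM + 1 (enriched minus flow-through) of each factor as deposited with its 95% interval (black), under T-cell scaling (squares) and without flow-through replicate 1 (triangles), with dotted lines at the median of all genes. Tbx21 (1.69) and Id2 (1.63) are the farthest to the right, Runx3 (0.56) is the smallest change that passed the test, and the intervals of Eomes and Zeb2 include 0.

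The genes whose pattern over the 8 libraries was most like that of Tbx21 were sought among 9328 other genes whose mean reached 5 FPKM, by the root mean square difference of centred log2(FPKM + 1). The closest were Lgals1 (0.050), which encodes galectin-1, Trat1 (0.0996), a T-cell receptor adaptor, Anxa2 (0.103), which encodes annexin A2, Ttc39c (0.115) and Sytl2 (0.120), a regulator of granule secretion. Lgals1 went from 415 ± 77.1 to 1333 ± 142 FPKM (SD, n = 4). Of the factors, Id2 ranked 18 by this measure, and Bhlhe40, Batf, Hopx and Irf4 ranked 135 to 170. Runx3 ranked 732, Eomes 2816 and Zeb2 7027, and Prdm1 lay below the level limit. These ranks are a description over libraries that share a fraction and a mouse.

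The lists that follow surround the factors. Their counts, and those of the marker lists, are to be read beside all genes tested, of which 14.1% were called higher and 13.7% lower. With the replicate block these shares were 22.2% and 22.7%, and no list was tested as a set. Of the family members and partners of the factors, 16 of 17 listed genes were analysed here and 15 passed the filter, of which 4 rose, 0 fell and 11 did not pass the test, with a median log2 fold change of 0.23 (2 rose under T-cell scaling, which is described above). Batf3, the Batf paralog known from dendritic cells and memory CD8+ T cells, rose from 2.36 ± 0.70 to 10.7 ± 2.4 FPKM (SD, n = 4; log2 fold change 1.80, limma adjusted p = 0.0010). Runx2 rose from 10.5 ± 2.9 to 29.3 ± 2.4 FPKM (log2 fold change 1.43), as did Runx1 (0.63, given above) and Cbfb, the shared partner of Runx proteins (0.56, limma adjusted p = 0.036, lost when any 1 of 5 of the 8 libraries was dropped). The E proteins Tcf3, Tcf4 and Tcf12, which Id2 binds, had log2 fold changes of -0.42, -0.19 and -0.067, and the Jun partners of Batf had values from -0.32 for Jun to 0.39 for Jund. None of these was called (Tcf3, Jun and Jund were with the replicate block, at adjusted p of 0.017, 0.0081 and 0.047).

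Of the receptors and signal transducers upstream of the factors, 3 of 10 rose and 1 fell (5 rose with the replicate block), with a median log2 fold change of 0.22. Il2ra, the high-affinity chain of the IL-2 receptor, rose from 3.57 ± 1.5 to 15.6 ± 4.4 FPKM (SD, n = 4; log2 fold change 1.90, limma adjusted p = 0.0039). Both chains of the IL-12 receptor, a signal that induces T-bet, rose, with log2 fold changes of 1.45 for Il12rb2 and 1.30 for Il12rb1. Stat5a, a transducer of IL-2 signals, fell by 0.48 on the log2 scale (limma adjusted p = 0.0091, call lost under T-cell scaling), and its neighbour Stat5b was at -0.011 (interval -0.16 to 0.14). Stat4, the transducer of IL-12, had a log2 fold change of 0.55 (limma adjusted p = 0.082, and 0.023 with the replicate block).

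Of 12 known targets of T-bet and Eomes, 10 rose and 0 fell, with a median log2 fold change of 1.09. Gzmb, which encodes granzyme B, rose from 66.6 ± 23 to 232 ± 38 FPKM (SD, n = 4; log2 fold change 1.85, limma adjusted p = 0.0026). The chemokine receptor Cxcr3 rose by 1.53, the IL-2 and IL-15 receptor chain Il2rb by 1.35 and Ifng, the gene of interferon-γ, by 1.35. Prf1, which encodes perforin, and Fasl had log2 fold changes of 0.43 and 0.59 (limma adjusted p of 0.070 and 0.059) and were called with the replicate block (0.019 and 0.012), which called all 12. The count of targets that rose was 6 when flow-through replicate 3, enriched replicate 2 or enriched replicate 4 was left out, and 6 with no filter on low values.

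Of 6 genes of tissue residency, 4 rose: Cxcr6 by 1.33, Cd101 by 0.96, the integrin genes Itgae by 0.92 and Itga1 by 0.73. Itga1, at under 3 FPKM in each library, was lost without flow-through replicate 3, enriched replicate 2 or enriched replicate 4 and under T-cell scaling. Cd69 had a log2 fold change of -0.43 (limma adjusted p = 0.30, and 0.023 with the replicate block), and Rgs1 one of 0.77 (0.096, and 0.0018 with the replicate block).

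Of 8 factors of naive and memory cells, 4 fell, 0 rose and 4 did not pass the test, with a median log2 fold change of -0.44. With the replicate block 4 were lower and 1, Bcl6, was higher (log2 fold change 0.45, limma adjusted p = 0.0071). Foxo1 and Klf2 had log2 fold changes of 0.27 and 0.21 and were not called. Myb, which supports stem-like CD8+ T cells, fell from 82.9 ± 5.2 to 26.8 ± 5.2 FPKM (SD, n = 4; log2 fold change -1.61, limma adjusted p = 0.00029). Flow-through replicate 1, with the highest erythroid marker sum (2649 FPKM), had Myb at 86.7 FPKM, within the flow-through range of 75.9 to 86.9 FPKM. Every other gene of this list had its lowest flow-through value in that library, such as Lef1 at 37.9 and Tcf7 at 201 FPKM. Which cells gave the Myb RNA was not tested. Bach2, a repressor of effector genes, fell by 1.11, Satb1 by 0.90 and Lef1, a partner of Tcf7, by 0.75. Bach2 (limma adjusted p = 0.044) and Lef1 (0.028) each lost the call when any 1 of 7 of the 8 libraries was dropped, with unchanged sign. Tcf7 itself was at 320 ± 86 FPKM in flow-through libraries and 283 ± 21 FPKM in enriched libraries (log2 fold change -0.13, interval -0.58 to 0.31, limma adjusted p = 0.63).

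Factors of other lymphoid lineages rose in 9 of 11 cases, with a median log2 fold change of 1.26. Foxp3, the factor of regulatory T cells, rose from 2.62 ± 1.4 to 11.6 ± 5.5 FPKM (SD, n = 4; log2 fold change 1.78, limma adjusted p = 0.0092). Maf rose by 1.71 and Rora by 1.63. Sox13 and Tox had log2 fold changes of 0.39 and 0.44 (limma adjusted p of 0.12 and 0.16, and 0.042 and 0.025 with the replicate block). The levels of Foxp3, Maf and Rora stayed below that of Tbx21 in both fractions.

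**Figure D4:**
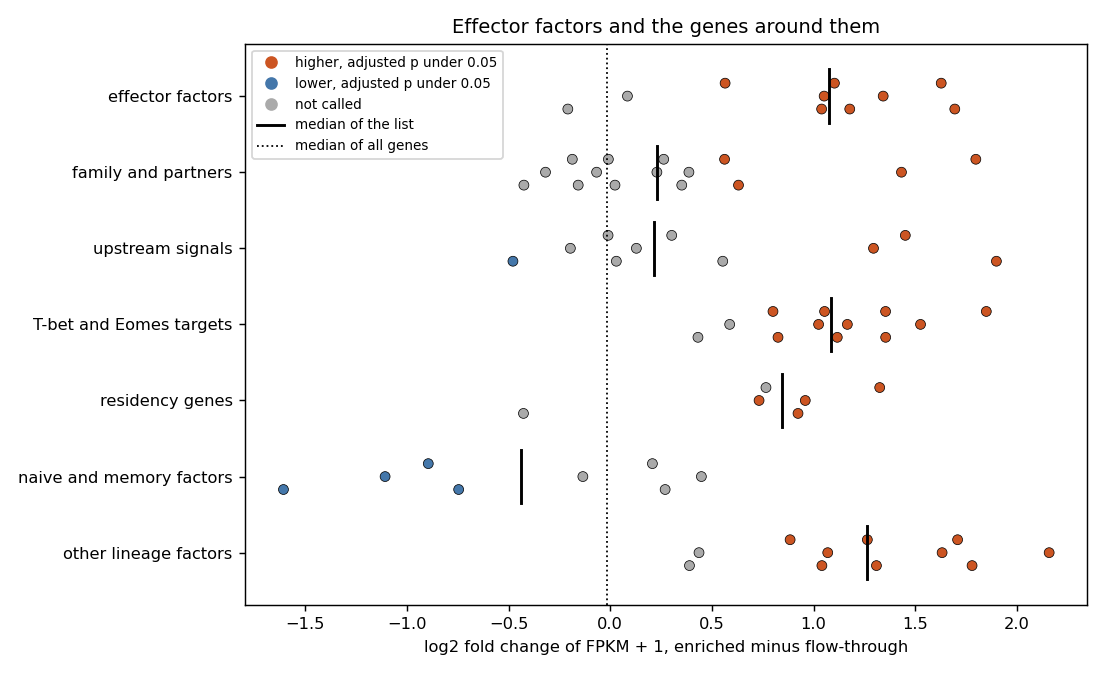
Log2 fold change of FPKM + 1 (enriched minus flow-through) of every tested gene of the factors and of the 6 lists around them, coloured by call, with the median of each list as a bar and that of all genes as a dotted line. The medians of the factors (1.08), of the T-bet and Eomes targets (1.09) and of other lineage factors (1.26) lie to the right, and that of naive and memory factors (-0.44) to the left.

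Several of the factors are also made by other cells, such as Tbx21, Eomes and Zeb2 by NK cells, Irf4 and Prdm1 by plasma cells, Id2, Zeb2 and Irf4 by dendritic cells and Batf and Irf4 by CD4 and regulatory T cells. Most markers of NK cells, of conventional dendritic cells and of CD4 and regulatory T cells moved with the factors. Of the plasma-cell markers 0 of 6 were called (6 with the replicate block). The part of these cells in the changes of the factors was not tested. NK-cell markers summed to 82.3 to 246 FPKM in flow-through libraries and 227 to 493 FPKM in enriched libraries. Of 6 tested genes 5 were higher (3 without flow-through replicate 1 or 3 or enriched replicate 2 or 4). Most of the sum came from Tyrobp (52.0 to 160 and 141 to 291 FPKM) and Fcer1g (27.1 to 76.9 and 65.3 to 143 FPKM). Tyrobp was not called (limma adjusted p = 0.053, and 0.00041 with the replicate block). Ncr1, an NK receptor, went from 0.623 to 2.68 FPKM to 7.33 to 27.1 FPKM. Markers of CD4 and regulatory T cells, led by Zbtb7b and Ctla4, summed to 17.2 to 32.1 and 54.9 to 86.3 FPKM (4 of 5 higher). Cd4 itself was at 0.310 to 1.28 and 1.80 to 7.90 FPKM. Conventional dendritic-cell markers summed to 48.5 to 135 and 187 to 518 FPKM (6 of 7 higher), led by H2-Ab1 and Itgax, and Zbtb46 was not called, at a log2 fold change of -0.23.

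The other lists are given by the same values, beside 14.1% of all genes tested called higher and 13.7% lower (22.2% and 22.7% with the replicate block). Macrophage and monocyte markers summed to 115 to 392 FPKM in flow-through libraries and 380 to 890 FPKM in enriched libraries (5 of 8 higher, 8 with the replicate block, 3 without flow-through replicate 1 or enriched replicate 2 or 3, and 2 without enriched replicate 4), with Lyz2 and Cd68 the most abundant. For γδ T cells, led by Tcrg-C1 and Tcrg-C2, the sums were 70.4 to 101 and 95.7 to 202 FPKM (3 of 6 higher, 5 with the replicate block). Plasma-cell markers, led by Jchain and Xbp1, summed to 335 to 1338 and 611 to 1607 FPKM (0 of 6 called, 6 with the replicate block, 2 with flow-through replicate 2 left out and 1 with enriched replicate 1 left out). B-cell markers, led by Cd79b and Cd79a, summed to 24.6 to 63.1 and 40.6 to 82.3 FPKM (1 of 5 tested higher, 2 with the replicate block), and plasmacytoid dendritic-cell markers, led by Pacsin1 and Spib, to 9.94 to 19.9 and 14.6 to 21.1 FPKM (1 of 4 higher, 3 with the replicate block). Neutrophil markers, led by Mpo and Elane, summed to 392 to 2267 and 421 to 2706 FPKM (0 of 7 called; with the replicate block 2 were higher and 1, Mpo, lower). Erythroid markers, led by Car1 and Hba-a1, summed to 838 to 2649 and 188 to 1261 FPKM, with 2 of 7 lower (6 with the replicate block). No marker of any list was listed at 0 in every library.

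**Figure D5:**
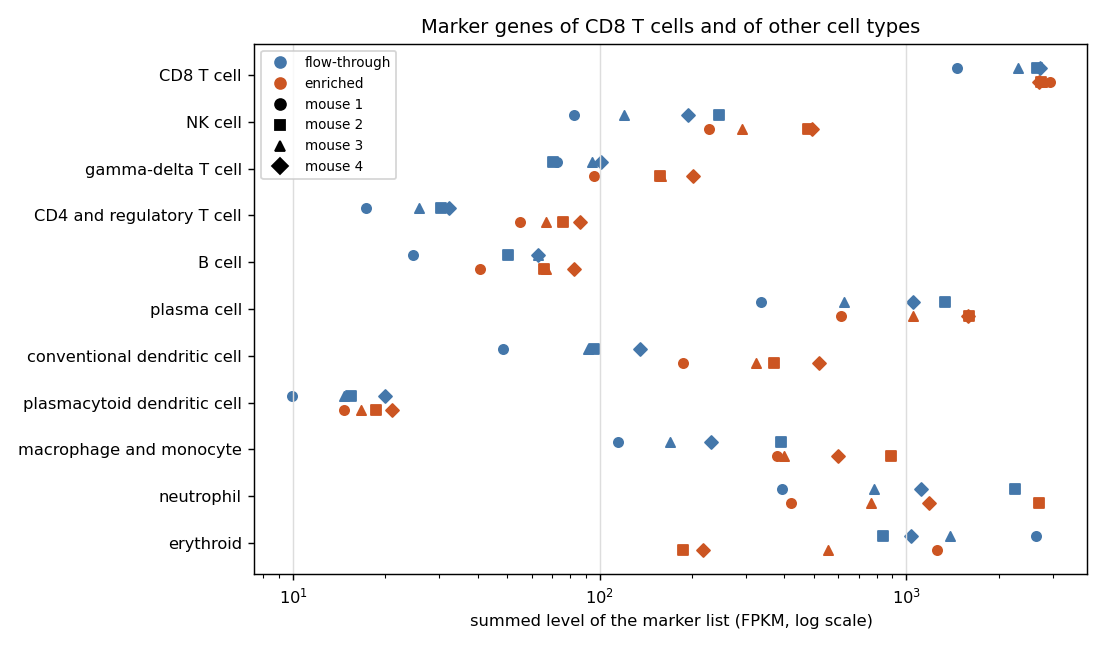
Summed FPKM (log axis) of each marker list in every library, with flow-through and enriched libraries coloured apart and a marker shape per mouse. The CD8 T-cell sum (1458 to 2933 FPKM) exceeds the NK-cell sum (82.3 to 493 FPKM, mostly Tyrobp and Fcer1g) and the dendritic-cell sums in each library. Flow-through replicate 1 is the lowest of the CD8 T-cell list and the highest of the erythroid list. In it the erythroid sum (2649 FPKM) exceeds the CD8 T-cell sum (1458 FPKM). In enriched replicate 2 the neutrophil sum (2706 FPKM) is close to the CD8 T-cell sum (2746 FPKM).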

How the data were processed

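RNA from 8 libraries was measured as poly(A), stranded, 150 bp paired-end sequencing. The authors filtered reads with in-house scripts, mapped them to mm10 with TopHat and computed FPKM with Cufflinks 2.1.1, with multi-read and fragment-bias correction and other options at default, and deposited 1 table of FPKM for 47493 genes. The annotation release is not given in the sources used here. FPKM is scaled to transcript length and library depth, so levels are relative to the whole library, and RNA of other cells can lower all T-cell genes of a library. Depth is not given by FPKM and was estimated from genes under 0.2 FPKM with transcripts of at least 1500 bases, without a count model or counting intervals.

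Groups came from the sample labels. limma 3.58.1 (R 4.3.3) was fitted to log2(FPKM + 1) for all 8 libraries, with a variance trend and no block, over genes whose mean reached 1 FPKM. P-values were adjusted over all of these by the Benjamini-Hochberg method (threshold 0.05). Fold changes are on the log2(FPKM + 1) scale and understate changes of low genes, whereas ratios of means and within-mouse values are on FPKM. The fitting script was tested on simulated data. Replicate numbers pair the fractions of 1 mouse: deviations from the fraction means correlated at 0.660, 0.589, 0.308 and 0.471 within the numbers. Replicates are separate mice. Within-library ratios were tested by exact permutation (two-sided) with 70 arrangements, adjusted over 6 ratios.

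Alternatives were a pseudocount of 0.1, no filter, a minimum of 5 FPKM, the replicate block, 3 scalings (to the summed FPKM, to the median ratio, to CD8 T-cell markers), no variance trend, and each library left out. Leaving out both libraries of mouse 1, and swaps of the fractions within mice for the ratios, were added after the data were seen. The factors and lists were chosen with earlier results of these data known. All factors were named. Of each list around them, the text names the called genes of the rarer direction (if 4 or fewer), up to 4 of the other direction by size of change, and partners in the ratios. A gene that this rule names is not reported here, and counts and medians include it. Of each marker list it names the most abundant pair. Cd4, Ncr1, Zbtb46 and the uncalled list members were named after their values were seen. Coordinates are from GENCODE M21 (GRCm38), in which 99.1% of gene identifiers were found. Gene names are those of the table, in which 256 entries share a name with another entry. For a shared name the entry of highest mean was used.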

Additional observations from a re-analysis of the deposited data

Results flagged for a closer look

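In 7 of 120 groups of 4 libraries, 1 library stood far from the other 3 relative to the range of the group, where chance gives about 1 in 20, or 6. Enriched replicate 1 was that library in 6 of them. It was high for Tbx21 (61.3 FPKM, others 49.7 to 51.7), Cxcr3 (194.9 FPKM, others 169 to 171) and Lgals1 (1543 FPKM, others 1241 to 1290.0), and low for Irf4 (14.8 FPKM, others 19.1 to 19.2). Its ratio of Prdm1 to Bcl6 was 1.34 (others 0.940 to 0.986) and its ratio of Tbx21 to Cd3e was 0.247 (others 0.208 to 0.214). Flow-through replicate 1, from the same mouse, was high for Stat5a (44.2 FPKM, others 33.7 to 34.9). Without enriched replicate 1, as without any other single library, 8 factors remained called higher.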

How the results depend on the processing

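In each fit that left out 1 library, in the fit with the replicate block and without both libraries of mouse 1, 8 factors were higher and 0 lower. The count was 7 under T-cell scaling and 7 of 9 with a minimum of 5 FPKM, which removed Prdm1. Over all genes, the replicate block gave 2705 higher and 2763 lower, and T-cell scaling 552 higher and 881 lower, so that 38.5% of calls were higher in place of 50.8%. Leaving out 1 library gave 1107 to 1813 higher (1107 without enriched replicate 4, 1115 without enriched replicate 2) and 939 to 1780 lower (939, 958 and 971 when flow-through replicate 3, enriched replicate 2 or enriched replicate 4 was dropped). The cause was not tested. Eomes changed sign under T-cell scaling (-0.21), without flow-through replicate 1 (-0.049) and without both libraries of mouse 1 (-0.058), over a range of -0.049 to 0.16 when 1 library was left out. Id3 did so under the same settings (-0.078, -0.010 and -0.026), with a range of -0.010 to 0.37. The log2 ratio Zeb2 to Zeb1 was 0.050 without enriched replicate 1 and 0.00738 without flow-through replicate 2, with a range of -0.16 to 0.050 over fits without 1 library. Of the values of the 10 factors under the alternatives, 165 kept their direction and side of the threshold, 3 changed sign (Eomes) and 1 lost its call (Runx3). Of the other named genes, 524 values kept both, 29 of 6 genes lost a call, 3 of Bcl6 gained one and 3 of Id3 changed sign. The block changed no call of a factor. With swaps within mice as a replicate block, the log2 ratios Tbx21 to Eomes (1.67), Id2 to Id3 (1.40), Prdm1 to Bcl6 (0.98) and Tbx21 to Cd3e (1.36) had an exact permutation p of 0.125 (adjusted 0.188), in a design that cannot go below p = 0.125. The depth behind single FPKM values is an estimate.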
